A study of Mus musculus with 6 samples.

Results

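TRIM proteins are a large family of ubiquitin ligases, and 43 of its genes were followed here in mouse bone marrow-derived macrophages. The members are the rows of the deposited table with a symbol of the form Trim plus a number and at most 1 letter, and with 30 or more counts over the 6 libraries. Of 56691 genes in the table, 68 carried such a symbol, 43 reached that total, and 25 did not, 12 of which had no count at all. The lowest totals inside were 38 counts for Trim15 and 79 for Trim7, and the highest outside were 27 for Trim66, 26 for Trim43c and 25 for Trim17.

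All libraries come from macrophages that were grown with the growth factor M-CSF, co-cultured with mEC25 cells (per the series title, a line of cancer cells) and sorted before RNA was taken. The 3 contact libraries are of macrophages mixed with the cancer cells, and the 3 transwell libraries of macrophages held apart from them by a transwell. None of the 6 libraries is of macrophages cultured alone, so falls and rises below are contact relative to transwell libraries only. The labels give no strain, genotype, age or culture time. Nor do they tell if replicates are separate animals or cultures, so the p-values reflect only how far these samples differ from each other, a spread that may be technical. The comparison asks what touching the cancer cells changes beyond sharing their medium.

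Most TRIM proteins carry a RING finger, which recruits a ubiquitin-conjugating enzyme, followed by B-boxes and a coiled coil, and a variable end that chooses the target. Many members that end in a SPRY domain are known to be induced by interferon and to act against viruses or to tune the sensors of viral nucleic acid. Others work elsewhere: Trim24, Trim28 and Trim33 are chromatin cofactors, Trim13 and Trim59 sit in membranes, and Trim29 is known from stratified epithelium.

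Library totals ran from 20911880 to 22563835 counts in contact and from 18173192 to 18895818 in transwell libraries. Contact libraries also held epithelial transcripts: 22 of 23 tested markers of a list of 28 were called higher. Their summed level was 999 to 1750 FPKM (counts per kilobase of exon, scaled to the library total) in contact and 4.81 to 5.41 FPKM in transwell libraries, where Krt15, Dsg3, Cldn4 and Grhl2 were at 0 in all 3. The keratin gene Krt5 stood at 281 to 511 FPKM in contact and 0.07 to 0.14 FPKM in transwell libraries, and the adhesion gene Epcam at 5.32 to 10.2 FPKM and 0 to 0.03 FPKM. Contact replicate 2 had the highest sum. Fibroblast markers summed to 10.5 to 24.9 FPKM in contact and 3.54 to 8.03 FPKM in transwell libraries (4 of 6 tested called higher). Macrophage markers summed to 14663 to 16618 FPKM in contact and 16182 to 17257 FPKM in transwell libraries (3 of 12 called higher and 5 lower). Most of these sums came from Lyz2 (11412 to 13076 FPKM and 12817 to 13785 FPKM). Adgre1 lay lower in contact (521 to 635 against 1164 to 1323 FPKM) and Cd14 higher (1313 to 1373 against 432 to 460 FPKM). Neutrophil markers summed to 720 to 1042 FPKM and 467 to 1084 FPKM, mostly from S100a8 and S100a9. Of 7 tested neutrophil markers 3 were called higher and 0 lower. The granule genes Mpo (16.2 to 24.6 against 1.72 to 5.67 FPKM) and Elane (21.2 to 35.5 against 2.68 to 6.08 FPKM) did not overlap between groups. Lymphocyte markers summed to at most 2.06 FPKM and dendritic cell markers to at most 4.18 FPKM in any library. The part of other cells' transcripts in the Trim results was not tested. Mitochondrial genes took 1.74%, 1.78% and 1.82% of counts in contact replicates 1 to 3 and 0.923%, 1.25% and 1.25% in transwell replicates 1 to 3. This share separated the groups, so it moved with every difference given here, and its part in them was not tested. In these bulk samples a change in the share of cells that make a transcript and a change in transcript per cell cannot be told apart.

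Of 16 tested Trim genes linked to antiviral defence, 12 were lower in contact libraries, none was higher and 4 were not called, while 9 members of other kinds were higher. The antiviral list was chosen with earlier results of these data known, so its count is a description. The largest fall was in Trim30c and the largest rise in Trim29, and the abundant antiviral genes Trim30a and Trim25 fell. The chromatin cofactor Trim28, the third most abundant member, stood at 39 ± 2.37 FPKM in contact and 35.7 ± 2.38 FPKM in transwell libraries (SD, n = 3), with no change called. Of 42 tested members, 15 were lower in contact and 9 higher by edgeR's quasi-likelihood test (two-sided, Benjamini-Hochberg adjusted over all 14113 genes tested, threshold 0.05). Over all genes 37.5% were called, 16.1% lower and 21.4% higher. A fitted change of at least 2-fold was reached by 4 members that fell and 2 that rose, where the shares over all genes were 2.38% and 11.8%. The groups did not overlap for 27 of the 42, against 51.6% of all genes. The median log2 change of the tested members was -0.04, beside 0.03 over all genes tested, and it turned to 0.04 in limma on log2(FPKM + 1), beside 0.09 over all genes there.

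The low-count filter was reached by 39 members in all libraries of both groups. Trim2 and Trim9 reached it in contact libraries only, Trim7 in neither group as a whole, and Trim15 was not tested. With no filter all 43 members were tested, and 16 were lower and 9 higher. Leaving out single libraries gave 13 to 16 lower and 6 to 10 higher, with 6 higher without contact replicate 2 and without transwell replicate 3. In limma on log2(FPKM + 1) without TMM scaling, 13 members were lower and 10 higher, and the split of all called genes moved from 3016 higher and 2270 lower to 3708 and 1435.

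**Figure D1:**
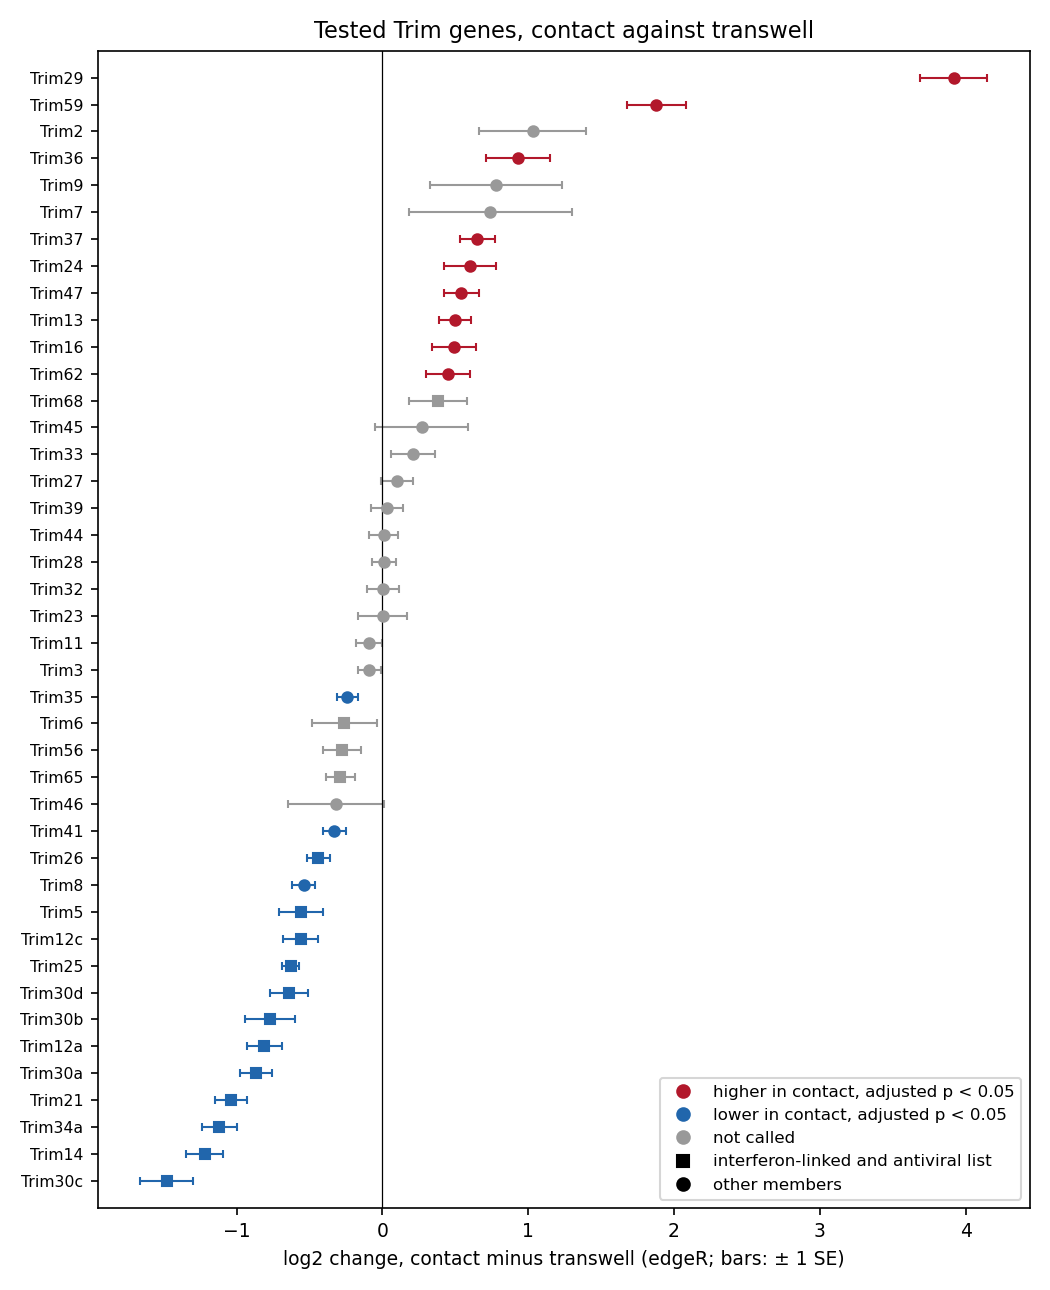
Fitted log2 change of the 42 tested Trim genes (x axis, contact minus transwell, bars ± 1 SE), coloured by call, with squares for the interferon-linked and antiviral list. The 12 called squares all lie below 0, from Trim30c at -1.48 to Trim26 at -0.44, and Trim29 stands at 3.92.

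Levels per length placed the same 3 genes at the top in both groups, in another order. In transwell libraries Trim30a led with 67.8 ± 10.3 FPKM, followed by Trim25 with 49.1 ± 1.04 FPKM and Trim28 with 35.7 ± 2.38 FPKM. In contact libraries Trim30a stood at 40.1 ± 3.39 FPKM and Trim28 at 39 ± 2.37 FPKM, which did not differ beyond their spread, and Trim25 at 34.4 ± 0.244 FPKM. Next came Trim8, Trim41, Trim30d and Trim35, with group means between 17.6 and 29.5 FPKM. The 43 members together summed to 338 ± 4.31 FPKM in contact and 399 ± 23 FPKM in transwell libraries. The 16 antiviral members made up 140 ± 7.02 and 215 ± 23 FPKM of these sums.

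Of the 16 members on the interferon-linked and antiviral list, 12 fell, none rose and 4 were not called (median log2 change -0.63). This list was chosen with earlier results of these data known. Among all genes tested 16.1% were lower and 21.4% higher, with a median of 0.03. Trim30a (ENSMUSG00000030921, chromosome 7, 104409025 to 104465193 on GRCm38, protein-coding), a mouse gene whose protein restrains Toll-like receptor signalling, read 37.2, 39.2 and 43.8 FPKM in contact replicates 1 to 3. Its transwell values were 56.4, 76.6 and 70.3 FPKM. All contact values lay below all transwell values, with replicate 1 the lowest of the transwell libraries. The log2 change was -0.87 ± 0.11 (SE, edgeR adjusted p = 2.2e-04).

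Trim25, the ligase that activates the RNA sensor RIG-I (gene Ddx58), was even across replicates. It read 34.5, 34.1 and 34.6 FPKM in contact and 49.3, 50 and 48 FPKM in transwell libraries (log2 change -0.63 ± 0.06, edgeR adjusted p = 4.5e-05). The groups were far apart next to their spread. Trim21, the cytosolic antibody receptor, read 3.45, 3.54 and 4.22 FPKM in contact and 6.47, 7.62 and 7.28 FPKM in transwell libraries. It was 2.06-fold higher in transwell libraries (log2 change -1.04 ± 0.11, edgeR adjusted p = 6.9e-05).

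Trim14, a member without a RING finger that acts as an adaptor at the mitochondrial antiviral protein MAVS, had the second-largest fall of the tested members. It read 3.01, 2.18 and 2.82 FPKM in contact and 5.69, 5.8 and 5.75 FPKM in transwell libraries (log2 change -1.22 ± 0.13, edgeR adjusted p = 6.0e-05). In GENCODE M21, 38% of its exonic bases are shared with other genes, mainly Nans on the opposite strand. The strand setting of the counting is not given, so reads of the pair may not be told apart. Nans itself stood at 9.6 ± 0.91 against 10.6 ± 0.52 FPKM (log2 change -0.26).

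Trim26, another antiviral member, read 8.1, 7.87 and 8.61 FPKM in contact and 9.44, 10.7 and 10.7 FPKM in transwell libraries (log2 change -0.44 ± 0.08, edgeR adjusted p = 0.00248). Its groups did not overlap, though its change was the smallest of the 12. The 4 members of the list without a call were Trim6 (-0.26 ± 0.22), Trim56 (-0.28 ± 0.13), Trim65 (-0.29 ± 0.10) and Trim68 (0.38 ± 0.20), all as log2 changes. Trim65 was called lower under 3 of 17 alternatives and Trim56 under 2, while Trim68 was called higher in both limma fits.

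**Figure D2:**
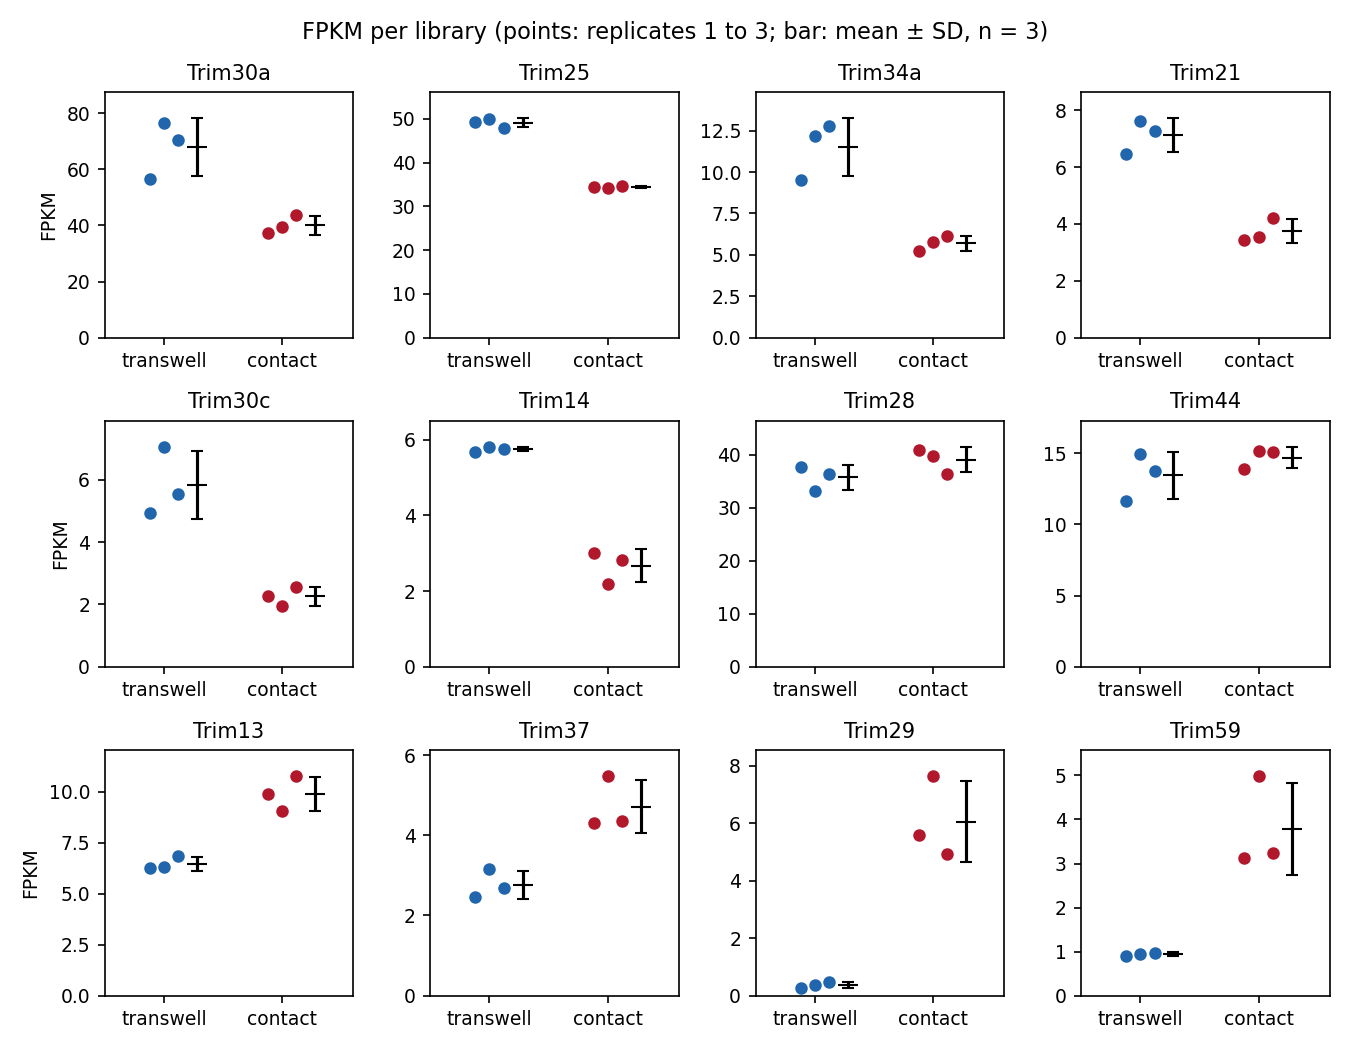
FPKM of 12 Trim genes in each library (points, replicates 1 to 3 from left to right) with mean ± SD (n = 3), each panel on its own scale from 0. Contact points lie below transwell points for Trim30a, Trim25, Trim34a, Trim21, Trim30c and Trim14, above them for Trim13, Trim37, Trim29 and Trim59, and overlap for Trim28 and Trim44.

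Of the 12 antiviral members that fell, 8 are neighbours in 1 cluster of 9 Trim genes on chromosome 7 (104218793 to 104507849 on GRCm38, 289 kb). This cluster holds the mouse relatives of human TRIM5, the retroviral capsid restriction factor, and the Trim30 genes. All its members but Trim6 fell, where 16.1% of all genes tested were lower. The cluster's median log2 change was -0.77, beside 0.03 over the 33 tested members outside it (9 higher, 7 lower). All 9 cluster genes are on the antiviral list, so this contrast does not separate position from list membership. Of the list members elsewhere, Trim14 (-1.22), Trim21 (-1.04), Trim25 (-0.63) and Trim26 (-0.44) also fell. Trim56, Trim65 and Trim68 were not called. In order along the chromosome the log2 changes were -0.26 for Trim6, -1.12 for Trim34a, -0.56 for Trim5, -0.81 for Trim12a and -0.56 for Trim12c. They were -0.77 for Trim30b, -1.48 for Trim30c, -0.87 for Trim30a and -0.64 for Trim30d.

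Trim30c, with the largest fall, read 2.27, 1.95 and 2.55 FPKM in contact and 4.93, 7.05 and 5.55 FPKM in transwell libraries (± 0.18 SE, edgeR adjusted p = 1.7e-04). The groups were apart by more than their spread, and transwell replicate 2 was the highest library. Trim34a read 5.23, 5.79 and 6.12 FPKM in contact and 9.53, 12.2 and 12.8 FPKM in transwell libraries (± 0.12 SE, edgeR adjusted p = 8.7e-05). Trim30d, the second most abundant gene of the cluster, read 16.4, 18.4 and 18.2 FPKM in contact and 20.1, 29.3 and 26.5 FPKM in transwell libraries (edgeR adjusted p = 0.00311). In all 3 genes the lowest transwell value lay above the highest contact value.

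Trim12a stood at 3.51 ± 0.249 against 5.69 ± 0.845 FPKM and Trim30b at 0.517 ± 0.0503 against 0.813 ± 0.0551 FPKM. Trim12c read 8.47, 11.1 and 10.1 FPKM in contact and 11.6, 14.8 and 13.9 FPKM in transwell libraries (edgeR adjusted p = 0.00536), and its call ended in limma on log2(FPKM + 0.1) (adjusted p = 0.0554). Trim5 stood at 2.72 ± 0.0854 against 3.71 ± 0.713 FPKM (edgeR adjusted p = 0.0134). Its call ended without contact replicate 2 (adjusted p = 0.0511), without transwell replicate 3 (adjusted p = 0.0586) and in both limma fits. Transwell replicate 1 was the lowest transwell library for 10 of the 15 members that fell, and for 7 of the 9 that rose. Without it 16 members were called lower.

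Several of these genes are near copies, and the labels do not tell how reads that fit more than 1 copy were counted. Of the 50-base stretches of the longest GENCODE M21 transcript, 41.3% were also found in a transcript of another gene for Trim34a (in Trim34b), 38.1% for Trim5 and 32.7% for Trim12c (mainly in each other). The shares were 8.29% for Trim30d, 6.53% for Trim30a and 0.66% for Trim30c. Trim34b, the copy of Trim34a, had 9 counts in all. Values of Trim5, Trim12c and Trim34a are uncertain for this reason.

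**Figure D3:**
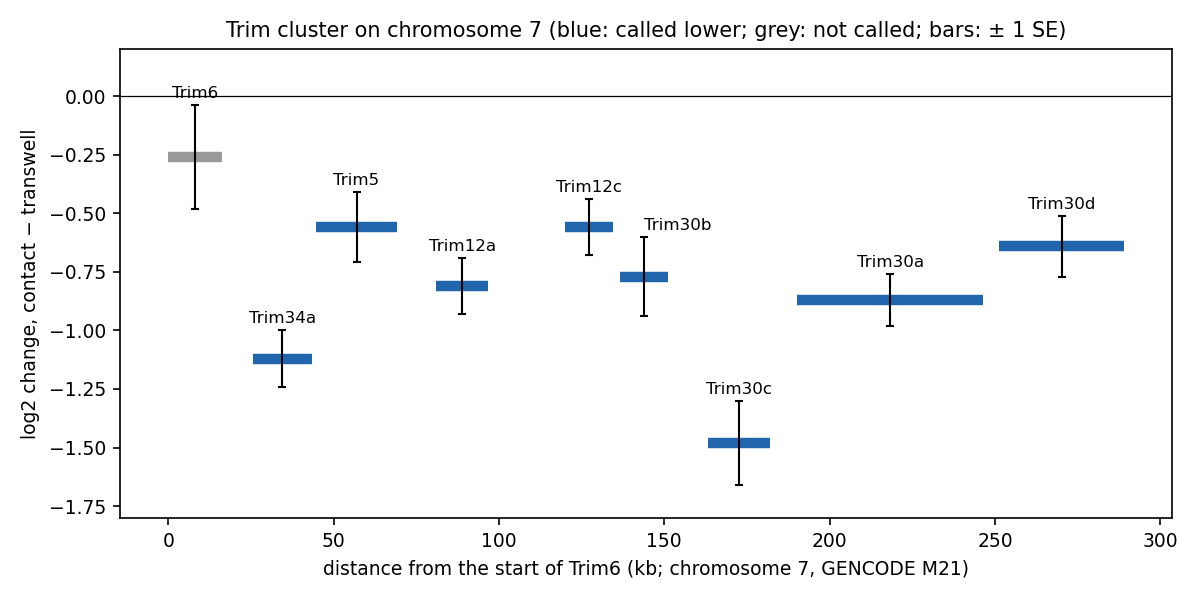
Log2 change (y axis, contact minus transwell, bars ± 1 SE) of the 9 genes of the chromosome 7 cluster, each drawn over its own span at its distance from the start of Trim6 (x axis, kb). Every gene lies below 0 and all but Trim6 were called lower, with Trim30c the lowest at -1.48.

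Some Trim members are linked to interferon, so member promoters were searched for the core of the interferon-stimulated response element. The core is 2 copies of GAAA separated by any 2 bases, on either strand. RefSeq windows on GRCm38.p6, from 250 bases before to 50 after each start, were at hand for 33 of the 43 members. None was at hand for Trim3, Trim8, Trim11, Trim14, Trim16, Trim29, Trim33, Trim35, Trim36 and Trim65. The core was found in 9 of the 33 (27.3%), against 3.99% of 27025 genes in the promoter table and 3.92% of the 10260 tested genes among them. It was in 8 of 14 antiviral members, 6 of them in the chromosome 7 cluster. Of the 9 members with the core 8 fell, and the other, Trim2, was not called. Of the 24 members without it, 23 were tested, of which 4 fell and 6 rose. Those 4 were Trim30c, with the largest fall of all members (log2 change -1.48), Trim25, Trim30b and Trim41. For comparison, 16.1% of all genes tested were called lower and 21.4% higher. A match is a description of letters and not of a bound site, and the part of interferon in these falls was not tested.

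The stretches below show the core as it stands in members that fell, on the strand of each gene, with the core in capitals. The first 4 lie before the annotated start and show how closely copies resemble each other, and the others are 30-base stretches around the core.
Trim30a, chr7:104465194-104465269, minus strand: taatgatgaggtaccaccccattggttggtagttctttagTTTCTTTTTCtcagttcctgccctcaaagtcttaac
Trim30d, chr7:104507850-104507930, minus strand: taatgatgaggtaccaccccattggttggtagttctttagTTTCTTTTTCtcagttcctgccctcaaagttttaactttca
Trim5, chr7:104288107-104288195, minus strand: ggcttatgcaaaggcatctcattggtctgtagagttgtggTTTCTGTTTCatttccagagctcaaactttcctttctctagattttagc
Trim12c, chr7:104353350-104353418, minus strand: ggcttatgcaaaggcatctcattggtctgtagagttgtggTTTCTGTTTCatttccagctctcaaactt
Trim12a, chr7:104315466-104315495, minus strand: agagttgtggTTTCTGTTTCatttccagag
Trim34a, chr7:104244457-104244486, plus strand: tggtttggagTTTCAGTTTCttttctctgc
Trim21, chr7:102565450-102565479, minus strand: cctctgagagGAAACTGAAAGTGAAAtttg
Trim26, chr17:36836976-36837005, plus strand: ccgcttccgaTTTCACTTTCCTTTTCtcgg
The core began at position -36 from the start for Trim30a, -41 for Trim30d, -49 for Trim5 and -29 for Trim12c, counting the first transcribed base as 0. It lay at 10 for Trim12a and Trim34a, and Trim30a held it again at 2 from a second annotated start. Trim21 and Trim26 each held 2 overlapping copies. Over 30 bases around the core, Trim30a and Trim30d differed at 0 bases, as did Trim5 and Trim12a, while Trim12c differed from Trim5 at 2. Near-identical promoters give matches that are not independent of each other. A further motif, the gamma-activated sequence core (TTC and GAA separated by any 3 bases, on either strand), was in 4 of 33 members (12.1%) and 9.55% of genes in the table. Among members that fell it was in Trim30c only, of those with a window.

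Outside the antiviral list 3 more members fell. Trim8, which promotes signalling downstream of tumour necrosis factor, read 23.2, 21.1 and 22 FPKM in contact and 30.2, 28.4 and 30.1 FPKM in transwell libraries (log2 change -0.54 ± 0.08, edgeR adjusted p = 4.2e-04). Trim41 stood at 21.5 ± 1.05 against 25 ± 0.69 FPKM (-0.33 ± 0.08, edgeR adjusted p = 0.00683), a call that ended in limma on log2(FPKM + 0.1) (adjusted p = 0.0772). Trim35 stood at 19.5 ± 0.352 against 21.2 ± 0.503 FPKM (-0.24 ± 0.07, edgeR adjusted p = 0.0214). Its call ended under 8 of 17 alternatives, among them leaving out any contact replicate (adjusted p from 0.059 to 0.0684) or transwell replicate 3 (0.0683).

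Trim29 had the largest rise of the members. The gene (ENSMUSG00000032013, chromosome 9, 43310848 to 43336115 on GRCm38, protein-coding) encodes a RING-less member. It read 5.6, 7.63 and 4.93 FPKM in contact replicates 1 to 3 and 0.26, 0.38 and 0.47 FPKM in transwell libraries. The fitted rise was 15.1-fold (log2 change 3.92 ± 0.23, edgeR adjusted p = 2.4e-06). Relative to the mean of the 3 contact libraries its values were 0.925, 1.26 and 0.814, and the epithelial marker sum was 0.891, 1.34 and 0.767. The part of epithelial transcripts in this result was not tested. Without contact replicate 2 the log2 change was 3.73.

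Trim59, a membrane-anchored member, read 3.13, 4.98 and 3.24 FPKM in contact and 0.9, 0.95 and 0.98 FPKM in transwell libraries (log2 change 1.88 ± 0.20, edgeR adjusted p = 7.3e-05). Contact replicate 2 stood highest, with a relative value of 1.32. Trim13, which sits in the endoplasmic reticulum membrane, read 9.88, 9.07 and 10.8 FPKM in contact and 6.25, 6.3 and 6.85 FPKM in transwell libraries (0.50 ± 0.11, edgeR adjusted p = 0.00638). Here contact replicate 2 was the lowest of the contact libraries, at 0.916 of their mean. Of the 50-base stretches of Trim13 14.5%, and of those of Trim59 6.61%, were also found in other genes, mainly Gm9359 for the first and Gm15381 and Gm4921 for the second. Trim37, a ligase linked to centrioles and peroxisomes, read 4.31, 5.47 and 4.36 FPKM in contact and 2.46, 3.15 and 2.69 FPKM in transwell libraries (0.65 ± 0.12, edgeR adjusted p = 0.00237). Together with Trim23, which carries an ARF domain (3.28 ± 0.229 against 3.03 ± 0.756 FPKM, not called), these made up a list of which 3 of 4 rose. Among all genes tested 21.4% were higher, and with only 4 members this count is a description.

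Trim47 read 6.01, 7.36 and 5.86 FPKM in contact and 4.41, 3.92 and 3.88 FPKM in transwell libraries (log2 change 0.54 ± 0.12, edgeR adjusted p = 0.00644). It shares 8.23% of its exonic bases with its neighbour Trim65, which stood at 2.71 ± 0.15 against 3.06 ± 0.254 FPKM. Trim36, a microtubule-linked member, stood at 1.75 ± 0.304 against 0.85 ± 0.246 FPKM (0.93 ± 0.22, edgeR adjusted p = 0.0088). Contact replicate 3 was its highest library, at 1.15 of the contact mean. Trim24, a cofactor of nuclear receptors, stood at 1.98 ± 0.265 against 1.21 ± 0.301 FPKM (0.60 ± 0.18, edgeR adjusted p = 0.0241), Trim16, which helps clear damaged lysosomes, at 2.27 ± 0.386 against 1.49 ± 0.0839 FPKM, and Trim62 at 1.73 ± 0.215 against 1.17 ± 0.0462 FPKM.

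Calls of the last 3 were close to the threshold. That of Trim24 ended without contact replicate 2 (log2 change 0.50, adjusted p = 0.0992) or transwell replicate 3 (0.64, adjusted p = 0.0604). That of Trim16 ended without contact replicate 1 (log2 change 0.53, adjusted p = 0.0571) or 2 (0.36, adjusted p = 0.0964) or transwell replicate 2 (0.41, adjusted p = 0.0896) or 3 (0.51, adjusted p = 0.0744), beside 0.49 with all libraries. For Trim62 it ended under 8 of 17 alternatives, among them leaving out any library but contact replicate 3 (log2 change 0.39 to 0.46, adjusted p from 0.0733 to 0.115), beside 0.45 with all libraries. Of the 9 members that rose, 7 were highest in contact replicate 2, the library with the most epithelial transcripts, and 4 (Trim29, Trim47, Trim16 and Trim62) ranked over the 3 contact libraries as the epithelial sum did. Of the 15 members that fell, 4 were highest in contact replicate 2. The share over all genes called higher is not given here. With 3 libraries these orders are a description, and the part of epithelial transcripts in these results was not tested.

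**Figure D4:**
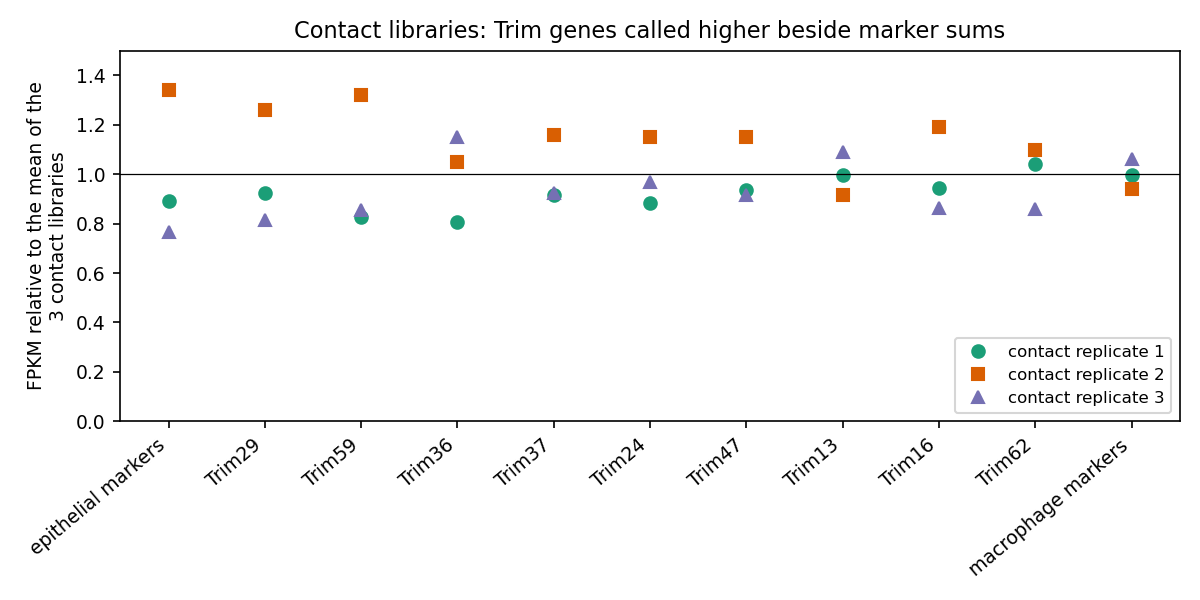
Level of the 9 Trim genes called higher in each contact library relative to the mean of the 3 (y axis), beside the sums of epithelial and macrophage markers. The macrophage sum is mostly Lyz2. Contact replicate 2 (squares) is the highest library for the epithelial sum (1.34), Trim29 (1.26) and Trim59 (1.32), and the lowest for Trim13 (0.916) and the macrophage sum (0.94).

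The remaining 18 tested members were not called. Among them were the abundant Trim28, the corepressor of KRAB zinc finger proteins (40.9, 39.7 and 36.3 FPKM in contact and 37.7, 33.1 and 36.3 FPKM in transwell libraries). Its log2 change was 0.01 ± 0.08 and its groups overlapped. Trim44 (14.7 ± 0.722 against 13.5 ± 1.67 FPKM), Trim3 (10.3 ± 0.39 against 10.1 ± 0.197 FPKM) and Trim27 (10.4 ± 1.22 against 8.99 ± 0.824 FPKM) also overlapped between groups, with log2 changes of 0.01 ± 0.10, -0.09 ± 0.08 and 0.10 ± 0.11. The chromatin cofactor Trim33 read 3.73, 3.94 and 4.22 FPKM in contact and 2.39, 3.88 and 3.25 FPKM in transwell libraries (0.21 ± 0.15). Of the 3 tested NHL-repeat members (Trim2, Trim3 and Trim32) none was called. Trim2 had non-overlapping groups (0.0933 ± 0.0252 against 0.0433 ± 0.0208 FPKM, log2 change 1.03, edgeR adjusted p = 0.0538) at 166 counts in all, and 4 of 15 alternatives called it higher. Trim2 reached the low-count filter in contact libraries only, the group where it stood higher, so these values are no support for a rise. Trim15, the member not tested, read 0.09, 0.12 and 0.14 FPKM in contact and 0.22, 0.28 and 0.14 FPKM in transwell libraries.

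Among TRIM proteins whose genes carry other symbols, Pml fell and Mefv rose. Pml, the organiser of nuclear bodies, fell from 19.2 ± 0.435 to 9.72 ± 0.467 FPKM (log2 change -1.10 ± 0.08, edgeR adjusted p = 5.0e-06). Mefv, the gene of the inflammasome protein pyrin, rose from 25 ± 3.27 to 52.5 ± 5.22 FPKM (0.95 ± 0.11, edgeR adjusted p = 9.2e-05). Mid2, a microtubule-linked member, stood at 0.333 ± 0.233 FPKM in contact and 0.00333 ± 0.00577 FPKM in transwell libraries (174 and 2 counts in all) and was called higher. It passed the low-count filter only through the contact libraries. Mid1 was not called.

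Genes around the family were read from 3 lists, chosen with earlier results of these data known. Over all genes tested, 16.1% were called lower and 21.4% higher. Of 36 interferon-induced genes outside the family 35 fell, and the other, Eif2ak2, was not called (median log2 change -1.32), among them Bst2, which tethers budding virus (624 ± 50.5 to 300 ± 12.8 FPKM), the ubiquitin-like Isg15 (107 ± 13 to 34.9 ± 3.75 FPKM), Oas1a (107 ± 7.86 to 48.3 ± 2.65 FPKM) and Rtp4 (95.6 ± 9.67 to 37.6 ± 1.34 FPKM). That median lies below the -0.63 of the antiviral Trim members, and the difference was not tested. Of 26 tested genes of nucleic acid sensing and signalling that TRIM proteins act on, 8 fell and 4 rose (median -0.15). The sensor gene Ddx58, the target of Trim25, fell from 21.3 ± 3.15 to 10.4 ± 0.611 FPKM and the transcription factor gene Irf7 from 101 ± 5.35 to 27.5 ± 1.45 FPKM. Ikbke (-0.34 ± 0.07) and Zc3hav1 (-0.28 ± 0.09) fell by less, and Nlrp3, the inflammasome sensor gene, rose from 16.4 ± 1.07 to 52.8 ± 4.57 FPKM. Tab2 and Tab3, whose proteins Trim30a is known to target, had log2 changes of 0.18 ± 0.11 and 0.26 ± 0.18 and were not called.

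Of 31 ubiquitin conjugation genes 9 fell and 6 rose (median -0.05), where 16.1% of all genes tested were lower and 21.4% higher. Genes of Isg15 conjugation were among those that fell: Ube2l6, its conjugating enzyme, went from 76.8 ± 7.28 to 28 ± 0.224 FPKM, Uba7, its activating enzyme, from 16.3 ± 0.978 to 7.63 ± 0.475 FPKM, and Usp18, which removes it, changed by -2.31 ± 0.10. The ubiquitin-activating enzyme gene Uba1 (-0.39 ± 0.07) and the ubiquitin gene Ubb (-0.22 ± 0.07) fell slightly. Ube2n, an enzyme that builds the ubiquitin chains used in signalling, stood at 28.5 ± 0.531 against 26.1 ± 1.67 FPKM (0.01 ± 0.07, not called), and Tnfaip3, a brake on NF-kB signalling, rose (1.11 ± 0.10). Isg15, Usp18, Irf7, Ddx58, Ifih1 and Dhx58 stand on more than 1 of these lists. These genes all fell, so the counts of the lists overlap. The 4 and 6 rising genes went to 2 and 3 when single libraries were left out: to 2 without contact replicate 2 or 3 or transwell replicate 1 or 3, and to 3 without contact replicate 1 or transwell replicate 3.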

How the data were processed

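The authors deposited raw counts per Ensembl gene and FPKM for each library, per the file headers. Of FPKM values with a count above 100, 99.93% lay within 1% of the value from count, given exonic length and library total. Builds GRCm38 and mm10 are named per the submitters' processing notes. The sources used here give no aligner, counter, annotation or strand setting. Gene positions are those of GENCODE M21 by gene ID, since the table's own coordinates did not match them.

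Genes were filtered with filterByExpr (minimum count 10), scaled with TMM and tested with edgeR 4.0.16 (quasi-likelihood, no covariate; limma 3.58.1, DESeq2 1.42.0, R 4.3.3; figures with matplotlib 3.10.9). The standard error is the absolute log2 change over the square root of F. The fit was tested on simulated counts. They held a much smaller share of changed genes, and less spread between replicates, than these data. That test therefore does not show how accurate the calls are here. Replicates differed by more than sampling noise (chi-square per degree of freedom 6.376 to 25.18). Alternatives were 2 scalings, 3 filters, DESeq2, limma on log2(FPKM + 1) and log2(FPKM + 0.1), a replicate block, markers left out, each library left out and, added after the data were seen, a transwell FPKM filter.

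The members and lists were chosen with earlier results of these data known. Named members are those past the threshold and 2-fold, the 12 other called and 4 uncalled ones with the highest mean FPKM, any with 3 or fewer counts in a group (there were none) and 5 named always (Trim29, Trim21, Trim25, Trim28 and Trim30a); of the other lists the 4 called genes with the highest mean FPKM, and Krt5 and Epcam of the markers. All other genes were named after their values were seen.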

Additional observations from a re-analysis of the deposited data

How the results depend on the processing

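Of the 24 called Trim members, 17 kept call and direction under every alternative that tested them (17 for 13 members, 16 for Trim29, Trim36 and Trim59, and 15 for Trim30b); the exceptions (Trim5, Trim12c, Trim16, Trim24, Trim35, Trim41 and Trim62) are given above. Leaving out single libraries gave 2465 to 3093 genes higher and 1577 to 2217 lower, 13 to 16 Trim members lower and 6 to 10 higher, a member median of -0.11 to -0.03, 2 to 4 sensing genes and 3 to 6 ubiquitin genes higher. Other counts that moved were 1435 genes lower in limma on log2(FPKM + 1) and 1269 with a pseudocount of 0.1, where also 5 sensing genes were lower. With a total of at least 30 counts 2 sensing genes were higher. With a filter chosen after the data were seen, transwell mean 1 FPKM or more, which favours falls, 1864 genes were higher and the member median was -0.18 over 31 members. In these cases the cause was not tested, beyond the smaller number of samples or genes. Uncalled members near 0 changed sign: Trim28 under median-ratio scaling and DESeq2 (-0.0035 in both), without a filter (-0.02) and without single libraries (-0.08 to 0.06); Trim44 without a filter (-0.02) and without single libraries (-0.07 to 0.06); Trim3 in both limma fits (0.02); and Trim27 without single libraries (-0.0031 to 0.19). Trim32 changed sign under 7 alternatives, Trim23 under 6, Trim11 and Trim39 under 2 each and Trim45 under 1. The limma fit at a pseudocount of 0.1 had a median of 0.14 over all genes, so its rises are relative to that.

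Replicate numbers did not pair the libraries: deviations of same-numbered libraries from their group means correlated at -0.0828, -0.445 and 0.0557 over genes. Those of differently numbered libraries correlated at -0.303 to 0.336, the highest for contact replicate 2 with transwell replicate 1. With the replicate block 2994 genes were higher and 2130 lower, and 8 Trim members were higher and 15 lower, the call of Trim62 having ended. Of 7 tested members under 1 FPKM 1 was called, and whether depth limits this count was not tested.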
